A study of Homo sapiens with 32 samples.

Results

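The genes described here are IGF2BP1, IGF2BP2, IGF2BP3, LIN28B, HMGA1 and HMGA2, a set of oncofetal genes that are active in the embryo and often active again in tumours. Most of them are low in adult tissues, IGF2BP2 being the exception. They were taken by symbol from the count tables, and all 6 had a row among the 62703 gene identifiers. The cells were HEK293T, an established human embryonic kidney line, and RNA was taken from whole cells (total RNA) or after separation into nuclear and cytoplasmic RNA. The genotypes were a CRISPR/Cas9 control with a guide that targets no mammalian gene, and knockouts of IGF2BP1, of IGF2BP2 and of IGF2BP3, with no other treatment. Each knockout was made by transient transfection of plasmids that carried 3 guides for the gene and GFP, and it was 1 sorted clone, so its libraries repeat that clone and p-values measure the spread between libraries. Whether the control was a clone or a pool was not given in the labels. Each RNA kind had 4 control libraries in batches 1 to 4, 2 IGF2BP1 knockout libraries in batches 1 and 2, and 2 libraries each of the IGF2BP2 and IGF2BP3 knockouts in batches 3 and 4. Cytoplasmic RNA had 2 more IGF2BP3 knockout libraries in batch 5, where there was no control.

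The IGF2BP proteins are RNA-binding proteins that hold bound mRNAs in cytoplasmic granules and slow their decay. LIN28B binds the precursors of the let-7 microRNAs and blocks their maturation, and mature let-7 in turn represses mRNAs that carry matches to its seed in the 3′ untranslated region (UTR). HMGA1 and HMGA2 are small chromatin proteins that bind AT-rich DNA, and HMGA2, LIN28B and IGF2BP1 are textbook let-7 targets, so these genes form a connected circuit in embryonic and tumour cells.

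IGF2BP1 (ENSG00000159217) lies at chr17:48997412-49055650 on the plus strand of GRCh38, and IGF2BP2 (ENSG00000073792) at chr3:185643739-185825056 on the minus strand. IGF2BP3 (ENSG00000136231) lies at chr7:23310209-23470467 on the minus strand, and LIN28B (ENSG00000187772) at chr6:104936616-105083332 on the plus strand. HMGA1 (ENSG00000137309) is at chr6:34236873-34246231 and HMGA2 (ENSG00000149948) at chr12:65824131-65966295, both on the plus strand. All 6 are protein-coding in GENCODE 29. No stretch of 50 bases, the read length, was shared between the transcripts of any pair of them. IGF2BP3 shared 16.6% of its 50-base stretches with MALSU1 on the opposite strand, so its counts depend on strand-aware counting, which is not given in the sources used here. The pseudogenes of HMGA1 drew few reads: in total RNA HMGA1P8 had 3 to 29 counts per library, HMGA1P4 0 to 18, HMGA1P3 3 to 14, HMGA1P1 0 to 6, HMGA1P2 0 to 3, HMGA1P6 0 to 2 and HMGA1P5 0 to 1. LIN28A, the paralog of LIN28B, had 0 to 1 counts and the antisense transcript LIN28B-AS1 had 0 to 13. The antisense neighbours of HMGA2, RPSAP52 and HMGA2-AS1, had 0 to 2 counts each, and IGF2BP2-AS1 had 0 to 1.

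The mature let-7 sequences are shown because the seed, bases 2 to 8 in capitals, defines which sites in these mRNAs they can pair with. RefSeq (GRCh38.p14) gave 10 mature sequences of the let-7 family from 13 genomic copies, and 9 of the 10 share the seed GAGGUAG. Those shown are let-7a of MIRLET7A1 (chr9:94175962-94175983), let-7b of MIRLET7B (chr22:46113691-46113712) and let-7i of MIRLET7I (chr12:62603691-62603712), all on the plus strand.
hsa-let-7a-5p: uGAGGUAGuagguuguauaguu
hsa-let-7b-5p: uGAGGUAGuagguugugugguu
hsa-let-7i-5p: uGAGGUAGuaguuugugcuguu

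The sites that follow are stretches of 24 bases of the 3′ UTRs of GENCODE 29 transcripts (GRCh38), sense to the mRNA and thus on the minus strand for IGF2BP2 and IGF2BP3, with the match to the seed in capitals. A full match of 8 bases (CTACCTCA, called 8mer) is given for each gene that has one, and the longest match otherwise.
IGF2BP1 site 1, chr17:49051068-49051091: gaagtaaaCTACCTCAaggtatga
IGF2BP1 site 3, chr17:49053705-49053728: gctagtaaCTACCTCAcagagccc
IGF2BP1 site 4, chr17:49054359-49054382: tggattaaCTACCTCAatccttac
IGF2BP2 site 1, chr3:185644212-185644235: agaagaagCTACCTCAggtgtttt
IGF2BP3 site 1, chr7:23311787-23311810: ttactcaaCTACCTCAggtattca
LIN28B site 1, chr6:105078819-105078842: tgcaaagtCTACCTCAtgcaagta
LIN28B site 3, chr6:105081428-105081451: gcaaaaggCTACCTCAtagttgat
HMGA2 site 1, chr12:65963305-65963328: ttcgatttCTACCTCAgcagcagt
HMGA1 site 1, chr6:34245836-34245859: ttcacaaaCTACCTCtggacagtt

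All 6 genes had a match to the let-7 seed, but their number differed widely. The search counted CTACCTCA, CTACCTC (7mer-m8) and TACCTCA (7mer-A1) on the sense strand of the 3′ UTR of 1 principal transcript per gene, and a match that overlapped a longer one was counted once. HMGA2 had 7 matches in 3003 bases, IGF2BP1 had 5 in 6206, LIN28B had 5 in 4549, IGF2BP2 had 2 in 1792, IGF2BP3 had 1 in 2153 and HMGA1 had 1 in 1347. Among the 3′ UTRs of 18905 coding genes, 14.0% had at least 1 match and 2.35% at least 2. Among 2012 UTRs of a length like that of HMGA2, 0.0497% had as many matches or more. The same share was 0.156% for LIN28B (of 1286), 0.556% for IGF2BP1 (of 719) and 1.68% for IGF2BP2 (of 2498). Each share counts the gene itself, and for HMGA2 it holds no other UTR. For IGF2BP3 and HMGA1, which have 1 match each, the shares were 19.5% and 14.6%, so a single match is common at their lengths. A match describes the sequence and was not tested as a working site, and mature microRNAs were not measured by these poly(A) libraries.

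**Figure D1:**
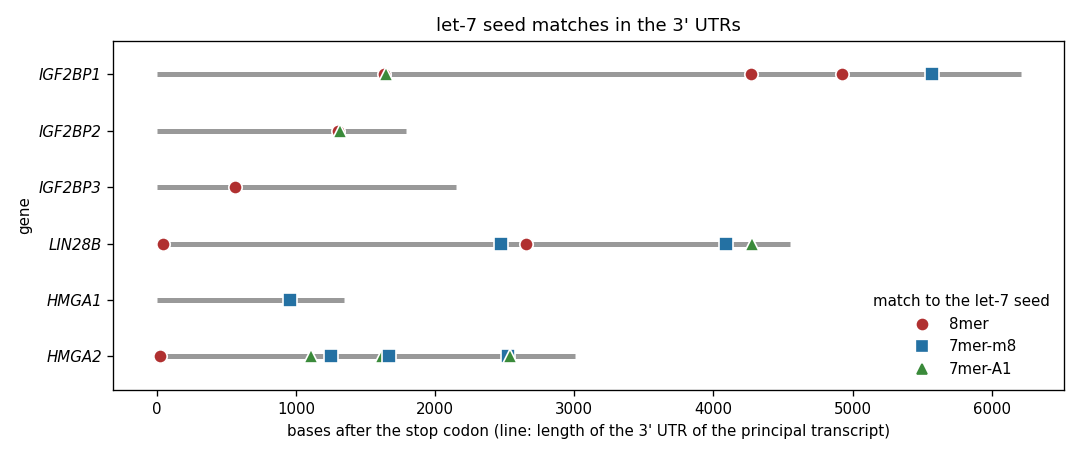
Position of let-7 seed matches in bases after the stop codon (x axis) for each gene (y axis). Grey lines give the length of the 3′ UTR, symbols give the kind of match, and markers of neighbouring matches overlap. HMGA2 carries 7 matches, IGF2BP1 and LIN28B 5 each, and HMGA1 and IGF2BP3 1 each.

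Library depth ranged from 13689067 to 26119480 counts over the 32 libraries. The files of total IGF2BP1 knockout 2 and nuclear IGF2BP1 knockout 1 held the same counts for all 62703 identifiers, with 0 differing, so 1 library stands under both labels. Which label is right was not tested, so the fit of either RNA kind may hold a library of the other kind. Results for the IGF2BP1 knockout in total and nuclear RNA are therefore given with and without the repeated library, and the lone library then left is assumed to vary like the other groups. In CPM (counts relative to the total count of the library, on the usual CPM scale) the repeated library had 276 for HMGA1 and 65.9 for LIN28B. The other nuclear library of this knockout had 288 and 78.4, and the other total one 411 and 114. IGF2BP2, IGF2BP3 and HMGA2 were also nearer the nuclear library, and IGF2BP1 nearer the total one. The sum of the nuclear RNA markers named next was nearer the total one too. It was 623 CPM in the repeated library, 632 in the other total and 507 in the other nuclear library of this knockout. Nuclear and total RNA overlapped in the sum of 7 nuclear RNA markers, MALAT1 and NEAT1 among them, and cytoplasmic RNA lay lower. The sum was 517 to 740.2 CPM in nuclear control libraries, 549.8 to 646 in total and 306 to 344 in cytoplasmic ones. In total RNA the same sum was higher with IGF2BP2 knocked out (1222 to 1259 CPM) and with IGF2BP3 knocked out (1646 to 1914 CPM). In nuclear RNA it was also higher, at 859 to 985 and 1357 to 1556 CPM in the same order. In cytoplasmic RNA it was 414 to 419 CPM with IGF2BP1, 921 to 961 with IGF2BP2 and 509 to 1092 with IGF2BP3 knocked out, and its part in the changes below was not tested. Not all of these markers rose in total RNA. In the IGF2BP2 knockout NEAT1 rose by 1.56 and MALAT1 by 0.87 on the log2 scale, and KCNQ1OT1 fell by 0.72. In the IGF2BP3 knockout NEAT1 rose by 2.18 and MALAT1 by 1.76, and PVT1 fell by 0.78. Markers of the embryonic kidney line were present in every genotype but moved: 10 of them summed to 1048 to 1088 CPM in total RNA of the control, 786 to 842 in the IGF2BP1 knockout, 1039 to 1076 in the IGF2BP2 knockout and 711 to 714 in the IGF2BP3 knockout. In the last NEFM fell by 2.66 and EYA1 fell by 2.36 on the log2 scale, and ENO2 rose by 2.02. Of the haematopoietic markers PTPRC had 0 to 3 counts, CD3E 0 to 1 and HBB 0 in total RNA. The sum of 7 fibroblast markers, most of it COL1A1, was 35.0 to 37.2 CPM in control, below every control in the IGF2BP1 knockout, 46.4 to 48.3 in the IGF2BP2 knockout and 77.3 to 77.6 in the IGF2BP3 knockout.

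In control cells all 6 mRNAs were abundant. Levels between genes are given as CPM per kb of the principal transcript in total RNA, as mean ± SD over 4 libraries. HMGA1 stood far above the others at 240.0 ± 6.28 CPM per kb, and IGF2BP1 followed at 53.4 ± 4.17. HMGA2 had 25.6 ± 1.54 CPM per kb, IGF2BP2 19.9 to 28.2 and IGF2BP3 19.7 ± 0.837, and the library ranges of neighbours in this order overlapped. LIN28B was lowest at 17.1 ± 0.887 CPM per kb, with no library above the lowest of IGF2BP3. The order depends on the length used: with the union of all annotated exons HMGA2, whose union is 15403 bases against 4473 for its principal transcript, had 7.42 ± 0.448 CPM per kb, below the other 5. In cytoplasmic control RNA the order by principal transcript was HMGA1 (333 CPM per kb), IGF2BP1 (44.4), HMGA2 (26.6), IGF2BP2 (21.2 to 22.5), IGF2BP3 (15.3) and LIN28B (14.9). In nuclear control RNA it was HMGA1 (167 CPM per kb), IGF2BP1 (42.2), IGF2BP2 (17.2), IGF2BP3 (16.7), HMGA2 (15.6) and LIN28B (11.1). Library ranges of IGF2BP2, IGF2BP3 and HMGA2 overlapped in nuclear RNA, and those of IGF2BP3 and LIN28B in cytoplasmic RNA.

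**Figure D2:**
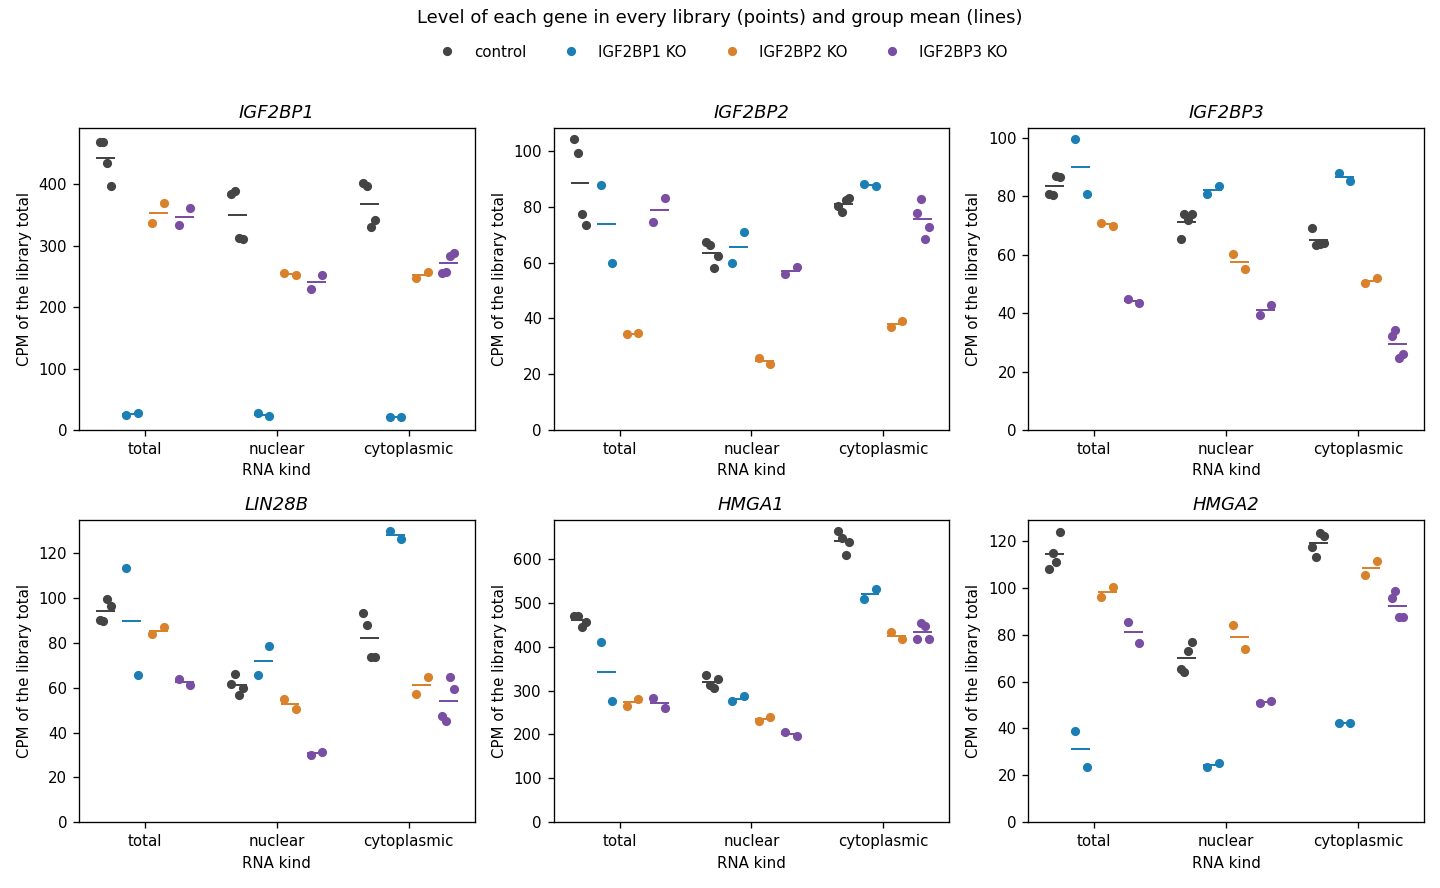
CPM of each gene (y axes, from 0) in every library, by RNA kind (x axis) and genotype (colour, KO for knockout). Points are libraries and short lines are group means. HMGA2 is lowest in the IGF2BP1 knockout in each RNA kind, and LIN28B is lowest in the IGF2BP3 knockout in nuclear RNA.

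Most of the set was lower in the knockouts of IGF2BP2 and IGF2BP3, and HMGA2 was the most reduced of the 6 in the IGF2BP1 knockout after IGF2BP1 itself. Calls rest on edgeR's quasi-likelihood test with the batch in the fit, at a p under 0.05 after Benjamini-Hochberg adjustment over all genes. In total RNA of the IGF2BP1 knockout 4 of 6 genes were called, all lower, beside 24.2% of all genes called and 13.5% called lower. Without the library that stands under 2 labels 5 were called, with LIN28B higher and the other 4 lower, beside 20.8% of all genes. In the IGF2BP2 knockout 6 of 6 were called, all lower, beside 47.0% called and 23.7% lower. In the IGF2BP3 knockout 5 of 6 were called, all lower, beside 46.9% called and 23.4% lower. Each count includes the targeted gene. Abundant cytoplasmic mRNAs moved with the set: of 8 such markers, all 8 fell in total RNA of the IGF2BP2 knockout (median -0.802) and of the IGF2BP3 knockout (-0.646), and all 8 in their cytoplasmic RNA (-0.766 and -0.519). ACTB fell by 1.09 and GAPDH fell by 0.93 in total RNA of the IGF2BP2 knockout. In the IGF2BP1 knockout 1 of the 8 fell in total and 6 in cytoplasmic RNA (medians -0.0845 and -0.197), and the part of these markers in the changes of the set was not tested. In nuclear RNA the counts were 2 lower in the IGF2BP1 knockout (background 25.7% called, 13.0% lower), 5 lower in the IGF2BP2 knockout (49.7%, 24.9% lower) and 5 lower in the IGF2BP3 knockout (50.4%, 25.3% lower). Without that library the nuclear count for the IGF2BP1 knockout was also 2, beside 23.3% of all genes. In cytoplasmic RNA of the IGF2BP1 knockout 2 genes rose and 3 fell (background 44.4% called, 22.5% higher, 21.9% lower). In the IGF2BP2 and IGF2BP3 knockouts all 6 fell in cytoplasmic RNA, beside 64.2% (33.2% lower) and 64.7% (33.2% lower) of all genes.

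The fold changes are relative to TMM-scaled library sizes. With plain library totals, an alternative chosen after the data had been examined, the median of all genes in cytoplasmic RNA moved from 0.0130 to 0.24 (log2) in the IGF2BP2 knockout and from 0.0248 to 0.29 in the IGF2BP3 knockout, and in total RNA to 0.20 and 0.23. The share of called genes that were higher moved with it, in cytoplasmic RNA from 50.7% to 63.2% (IGF2BP1 knockout), 48.2% to 68.0% (IGF2BP2) and 48.6% to 72.9% (IGF2BP3), and in total RNA from 44.1% to 56.2%, 49.6% to 69.0% and 50.1% to 73.3%. In nuclear RNA the IGF2BP2 and IGF2BP3 knockouts moved from 49.9% to 60.6% and from 49.8% to 63.6%. With plain totals log2 changes in these 2 knockouts thus lie higher by about that amount, so decreases are smaller and rises larger.

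**Figure D3:**
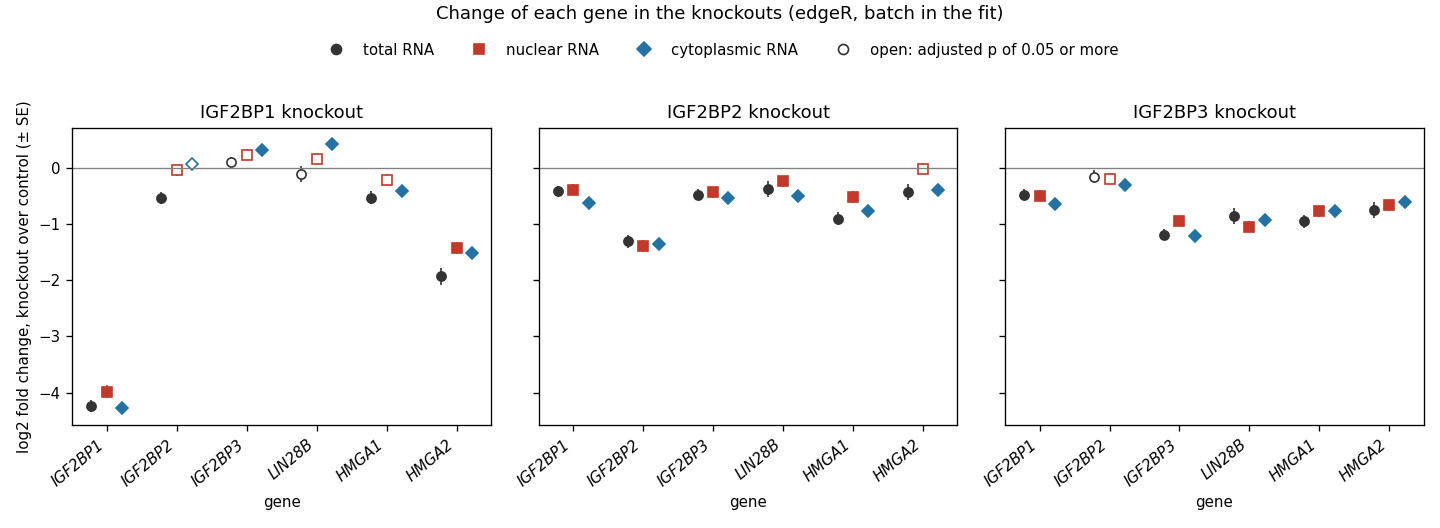
Log2 fold change against control (y axis, ± SE from edgeR) of each gene (x axis) in each knockout (panels) and RNA kind (symbols). Open symbols have an adjusted p of 0.05 or more. For the IGF2BP1 knockout the HMGA2 change is lowest in total RNA, at -1.93, with the library that stands under 2 labels included. Without that library the total RNA change was -1.54, near the -1.52 of cytoplasmic RNA. LIN28B was called higher in cytoplasmic RNA of the IGF2BP1 knockout and lower in the IGF2BP3 knockout.

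The targeted genes checked the labels. IGF2BP1, whose protein binds the MYC and ACTB mRNAs among others, had 469, 469, 435 and 396 CPM in the 4 total control libraries and 24.7 and 27.1 CPM in its own knockout. The groups were far apart, and 5.31% of the control level was left (log2 change -4.23 ± 0.107 SE, adjusted p = 1.1e-10, edgeR). Without the library that stands under 2 labels the change was -4.31. The change was -3.98 ± 0.115 in nuclear RNA (-4.07 without that library) and -4.28 ± 0.0484 in cytoplasmic RNA.

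IGF2BP2, the family member that remains widely active in adult tissues, kept far more of its RNA in its own knockout. Its CPM in total RNA was 104, 99.1, 77.5 and 73.6 in control and 34.3 and 34.8 in the IGF2BP2 knockout. All control libraries were higher, although batches 1 and 2 stood above batches 3 and 4. The change was -1.31 ± 0.119 (adjusted p = 2.73e-06, edgeR), which leaves 40.2% of the control level, and it was -1.39 ± 0.106 in nuclear and -1.35 ± 0.0537 in cytoplasmic RNA.

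IGF2BP3, a protein best known from fetal tissue and leukaemia, had 80.8, 80.2, 86.9 and 86.4 CPM in total control RNA and 44.7 and 43.4 CPM in the IGF2BP3 knockout. The groups did not overlap, and 43.8% of the control level was left (-1.19 ± 0.0989, adjusted p = 1.25e-06, edgeR). The change was -0.95 ± 0.0961 in nuclear RNA and -1.21 ± 0.0567 in cytoplasmic RNA. Guides that change a reading frame need not remove the RNA, and the protein was not measured in these files.

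IGF2BP3 rose in the IGF2BP1 knockout. In cytoplasmic RNA IGF2BP3 had 69.0, 63.4, 63.8 and 63.8 CPM in control and 88.0 and 85.2 CPM in the IGF2BP1 knockout. Both knockout libraries were above all controls, and the change was 0.31 ± 0.0499 (adjusted p = 3.33e-06, edgeR). In nuclear RNA the same change was 0.23 ± 0.0917 and did not pass the test (adjusted p = 0.0633), although it passed with upper quartile scaling (0.24, adjusted p = 0.0475) and with plain library totals (0.24, adjusted p = 0.0442). In total RNA it was 0.10 ± 0.0963 (adjusted p = 0.500). All of these nuclear and total RNA fits hold the library that stands under 2 labels. Without that library the IGF2BP3 change was 0.21 in nuclear and 0.23 in total RNA.

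IGF2BP2 in cytoplasmic RNA of the IGF2BP1 knockout had 88.2 and 87.4 CPM, above the control range of 78.2 to 83.2 CPM. Its change of 0.07 ± 0.0481 did not pass the test (adjusted p = 0.218, edgeR), and with plain library totals it passed (0.15, adjusted p = 0.0113). Its nuclear change was -0.05 ± 0.0965 (adjusted p = 0.776). Its total RNA fell by 0.54 on the log2 scale (adjusted p = 0.00428), from 104 and 99.1 CPM in the controls of batches 1 and 2 to 87.6 and 59.9 CPM. The lower value is the library that stands under 2 labels, and without it the decrease was -0.32 ± 0.0906 (adjusted p = 0.0115). The call with all libraries was lost with limma on log2(FPKM + 1) (adjusted p = 0.0512) or log2(FPKM + 0.1) (0.0712), and without the replicate block (-0.32, 0.164).

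IGF2BP1 was lower in the knockouts of both relatives. In cytoplasmic RNA it had 401, 397, 329.6 and 341 CPM in control, 248 and 257 CPM in the IGF2BP2 knockout, and 256, 257, 284 and 288 CPM in the IGF2BP3 knockout. No knockout library reached the lowest control. The changes were -0.63 ± 0.0362 in the IGF2BP2 knockout and -0.65 ± 0.0361 in the IGF2BP3 knockout (adjusted p = 8.33e-17 and 3.54e-17, edgeR), and with plain library totals -0.41 and -0.39. In total RNA the same changes were -0.42 ± 0.0918 (adjusted p = 0.00223) and -0.48 ± 0.0918 (adjusted p = 9.23e-04). The total RNA call in the IGF2BP2 knockout was lost without control 3 (adjusted p = 0.0783) or without IGF2BP2 knockout 1 (adjusted p = 0.0947), and that in the IGF2BP3 knockout without control 3. In nuclear RNA IGF2BP1 fell by 0.39 and by 0.50 on the log2 scale. The nuclear call in the IGF2BP2 knockout was lost without control 3 (adjusted p = 0.0699) or without IGF2BP2 knockout 2.

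IGF2BP3 fell in the IGF2BP2 knockout in every RNA kind. It had 71.0 and 69.8 CPM there in total RNA, below all 4 controls, and the change was -0.48 ± 0.0971 (adjusted p = 0.00125, edgeR). The nuclear change was -0.44 ± 0.0946 (adjusted p = 1.37e-04) and the cytoplasmic one -0.54 ± 0.0540 (adjusted p = 1.07e-10). IGF2BP2 in the IGF2BP3 knockout depended on the scaling: it was called lower in cytoplasmic RNA (-0.31 ± 0.0486, adjusted p = 1.11e-06), and with plain library totals the change was -0.04 ± 0.0488 (adjusted p = 0.441). Its libraries there (77.9 and 82.7 CPM in batches 3 and 4, 68.2 and 72.9 in batch 5) overlapped the control range of 78.2 to 83.2 CPM.

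The summed level of the IGF2BP mRNAs, as CPM per kb, was lower in every knockout library than in any control library. In total RNA the sum was 97.1 ± 7.38 in control (n = 4), 44.3 ± 8.24 in the IGF2BP1 knockout (n = 2), 68.6 ± 2.65 in the IGF2BP2 knockout (n = 2) and 73.7 ± 3.89 in the IGF2BP3 knockout (n = 2). IGF2BP1 made up 55.0% ± 0.726 of the sum in control and 7.24% ± 1.81 in its own knockout, where IGF2BP2 held 44.8% ± 3.65 and IGF2BP3 48.0% ± 1.84. IGF2BP2 held 24.6% ± 2.47 of the control sum and 13.7% ± 0.389 of the sum in its knockout. IGF2BP3 held 20.4% ± 2.39 in control and 14.1% ± 1.05 in its knockout. IGF2BP1 held the largest share in control and in the IGF2BP2 (62.2% ± 1.61) and IGF2BP3 (56.9% ± 0.297) knockouts. The shares depend on the length used. With the union of exons, IGF2BP2 held 53.3% ± 4.11 and IGF2BP3 36.6% ± 1.56 in total RNA of the IGF2BP1 knockout, the reverse order. IGF2BP3 then held 12.8% ± 1.62 in control. The IGF2BP1 knockout library that stands under 2 labels has the lower sum, 38.5 CPM per kb, and the other one 50.1. In cytoplasmic RNA, which does not hold it, the sums were 77.2 to 86.5 CPM per kb in control and 46.4 to 47.3 in the IGF2BP1 knockout. In bulk RNA a lower level in some cells and a lower share of cells with the mRNA cannot be told apart.

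**Figure D4:**
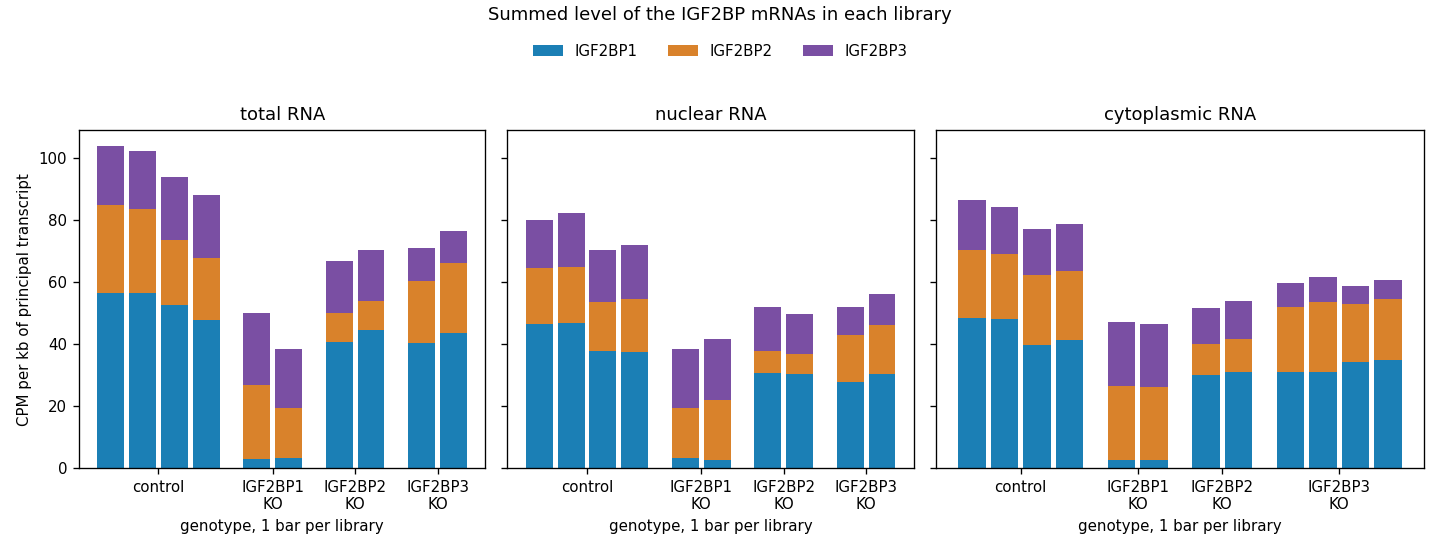
Stacked bars give the CPM per kb of principal transcript (y axis, from 0) of IGF2BP1, IGF2BP2 and IGF2BP3 in each library, by genotype (x axis, KO for knockout) and RNA kind (panels). Total control libraries sum to 88.2 to 104, and IGF2BP1 knockout libraries to 38.5 and 50.1, with almost none of it from IGF2BP1.

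HMGA2, the chromatin protein with the most let-7 matches of the set, lost most of its RNA in the IGF2BP1 knockout. In total RNA it had 108, 115, 111 and 124 CPM in control and 38.7 and 23.5 CPM in the knockout, which leaves 26.2% of the control level (-1.93 ± 0.153, adjusted p = 4.35e-06, edgeR). The groups were far apart, but the 2 knockout libraries differed from each other, and without the lower one, which stands under 2 labels, the change was -1.54 ± 0.105 (adjusted p = 1.53e-12). In nuclear RNA it had 65.6, 64.0, 72.9 and 76.9 CPM in control and 23.5 and 25.3 CPM in the knockout (-1.43 ± 0.101, adjusted p = 1.84e-15, and -1.30 ± 0.125 without that library). In cytoplasmic RNA, which does not hold the repeated library, it had 118, 113, 123 and 122 CPM in control and 42.3 and 42.3 CPM in the knockout. This change was -1.52 ± 0.0496 (adjusted p = 1.07e-22), so 34.8% of the control level was left.

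HMGA2 fell less in the IGF2BP3 knockout. Its CPM in total RNA was 85.5 and 76.6 there, below all controls (-0.75 ± 0.144, adjusted p = 9.5e-04, edgeR), and the nuclear change was -0.67 ± 0.0969 (adjusted p = 1.25e-07). In cytoplasmic RNA it had 95.6, 98.5, 87.5 and 87.6 CPM, again below all controls (-0.61 ± 0.0442, adjusted p = 5.4e-14). With plain library totals the cytoplasmic change was -0.34 ± 0.0443 and still passed (adjusted p = 4.74e-08).

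The IGF2BP2 knockout gave the weakest HMGA2 change. In nuclear RNA HMGA2 had 84.1 and 73.8 CPM, within or above the control range, and the change was -0.02 ± 0.0953 (adjusted p = 0.851, edgeR). In cytoplasmic RNA it had 106 and 111 CPM, below all controls (-0.40 ± 0.0440, adjusted p = 9.53e-10). In total RNA the change of -0.44 ± 0.144 (adjusted p = 0.0230) passed in 13 of 21 alternative fits. It was lost without control 3 (adjusted p = 0.0658), control 4 (0.258), IGF2BP2 knockout 1 (0.182) or IGF2BP2 knockout 2 (0.139), and with plain library totals (-0.26, adjusted p = 0.168).

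LIN28B, the let-7 blocker, moved in opposite directions in the IGF2BP1 and IGF2BP3 knockouts. In cytoplasmic RNA it had 93.3, 88.0, 73.9 and 73.7 CPM in control, and 129.7 and 126 CPM in the IGF2BP1 knockout. Both libraries were above all controls, and the change was 0.42 ± 0.0498 (adjusted p = 1.18e-08, edgeR). It had 47.3 and 45.0 CPM in the IGF2BP3 knockout of batches 3 and 4, below all controls, and the change was -0.94 ± 0.0573 (adjusted p = 4.27e-16).

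The decrease of LIN28B in the IGF2BP3 knockout was found in every RNA kind. In nuclear RNA its level went from 61.5, 66.3, 56.6 and 59.8 CPM in control to 30.0 and 31.4 CPM (-1.05, which is 48.4% of the control level, adjusted p = 4.29e-12, edgeR). In total RNA it went from 90.1, 89.9, 99.8 and 96.4 CPM to 64.1 and 61.0 CPM (-0.86 ± 0.139, adjusted p = 2.47e-04). No library of the knockout overlapped the control in either kind.

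With all libraries LIN28B passed the test in the IGF2BP1 knockout in cytoplasmic RNA and not in the other kinds. Its nuclear level of 65.9 and 78.4 CPM overlapped the control (0.16 ± 0.0939, adjusted p = 0.236, edgeR). The lower value is the library that stands under 2 labels, and without that library the nuclear change of LIN28B was 0.28. Its total level was split, at 114 CPM in knockout 1 and 65.9 CPM in the library that stands under 2 labels, and the change was -0.11 ± 0.139 (adjusted p = 0.608). Without the repeated library it was 0.27 ± 0.0876 (adjusted p = 0.0271), and without total control 2 also 0.27 (adjusted p = 0.0250). Without IGF2BP1 knockout 1 it was -0.50 (adjusted p = 3.34e-05), and without total control 1 it was -0.49 (adjusted p = 4.5e-05), so the direction in total RNA depended on which pair of libraries was kept.

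In the IGF2BP2 knockout LIN28B fell in cytoplasmic RNA, to 57.4 and 64.7 CPM, below all controls (-0.50 ± 0.0557, adjusted p = 1.44e-09, edgeR). Its total RNA change of -0.38 ± 0.138 (adjusted p = 0.0361) passed in 9 of 21 alternative fits. The call was lost with upper quartile scaling (-0.28, adjusted p = 0.101) and with plain library totals (-0.20, adjusted p = 0.264). It was also lost with limma on log2 FPKM, without the replicate block and with at least 10 counts in every library. It was lost without any single library of batches 3 and 4, with adjusted p from 0.0568 (IGF2BP3 knockout 1) and 0.0585 (IGF2BP3 knockout 2) through 0.146 (IGF2BP2 knockout 2), 0.167 (control 4) and 0.187 (control 3) to 0.267 (IGF2BP2 knockout 1). Its nuclear change of -0.24 ± 0.0973 (adjusted p = 0.0355) passed in 9 of 20. The nuclear call was lost with plain library totals (-0.14, adjusted p = 0.193). It was lost without control 3 (adjusted p = 0.116), control 4 (0.363), IGF2BP2 knockout 2 (0.442) or IGF2BP3 knockout 1 (0.0514).

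HMGA1, the more abundant chromatin protein gene, was lower in cytoplasmic RNA of every knockout. It had 665, 647, 609 and 639 CPM in control, 508 and 531 CPM in the IGF2BP1 knockout, 434 and 416 CPM in the IGF2BP2 knockout, and 419, 454, 447 and 417 CPM in the IGF2BP3 knockout. No knockout library reached the control range. The changes were -0.41 ± 0.0414, -0.78 ± 0.0418 and -0.78 ± 0.0417 (adjusted p = 4.75e-10, 1.8e-17 and 1.31e-17, edgeR). With plain library totals they were -0.34, -0.55 and -0.52, and each still passed. In total RNA HMGA1 had 470.2, 471, 445 and 457 CPM in control, 265 and 281 CPM in the IGF2BP2 knockout and 283 and 259.8 CPM in the IGF2BP3 knockout. These changes were -0.91 ± 0.115 (adjusted p = 3.71e-05) and -0.95 ± 0.115 (adjusted p = 2.59e-05).

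In total RNA of the IGF2BP1 knockout HMGA1 had 411 CPM in knockout 1 and 276 CPM in the library that stands under 2 labels. The change was -0.54 ± 0.115 (adjusted p = 0.00462, edgeR, lost with limma on log2(FPKM + 1) at 0.0789) and -0.26 ± 0.0849 (adjusted p = 0.0271) without that library. In nuclear RNA it was -0.22 ± 0.101 and did not pass (adjusted p = 0.111). It was -0.34 without nuclear IGF2BP1 knockout 2 and -0.35 without nuclear control 2, fits in which the repeated library alone sets the change. Without the repeated library the nuclear change was -0.09. The nuclear changes were -0.52 ± 0.102 in the IGF2BP2 knockout (adjusted p = 3.16e-05) and -0.78 ± 0.102 in the IGF2BP3 knockout (adjusted p = 1.68e-08).

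Knockouts were also compared with each other, which asks whether a change differs between them. In cytoplasmic RNA all 6 genes differed between the IGF2BP1 and IGF2BP2 knockouts (48.4% of all genes called) and between the IGF2BP1 and IGF2BP3 knockouts (51.3% called), and 4 differed between the IGF2BP3 and IGF2BP2 knockouts (62.7% called). HMGA2 was lower in the IGF2BP1 knockout than in the IGF2BP2 knockout by a log2 difference of -1.12 ± 0.0666 and than in the IGF2BP3 knockout by -0.92 ± 0.0667 (adjusted p = 1.06e-15 and 1.51e-13, edgeR). LIN28B was higher in the IGF2BP1 knockout than in the IGF2BP3 knockout by 1.37 ± 0.0759 (adjusted p = 1.85e-16). LIN28B was lower in the IGF2BP3 knockout than in the IGF2BP2 knockout by -0.45 ± 0.0566 (adjusted p = 2.32e-08). Without the replicate block, where the batch 5 libraries (64.9 and 59.3 CPM) enter beside those of the IGF2BP2 knockout (57.4 and 64.7), this was -0.12 and did not pass (adjusted p = 0.615). HMGA1 differed between the IGF2BP3 and IGF2BP2 knockouts by -0.01 ± 0.0417 (adjusted p = 0.873), and IGF2BP1 by -0.02 ± 0.0360 (adjusted p = 0.657).

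In nuclear RNA 5 of 6 genes differed between the IGF2BP1 and IGF2BP2 knockouts (28.1% of all genes called), 5 between the IGF2BP1 and IGF2BP3 knockouts (34.7%) and 5 between the IGF2BP3 and IGF2BP2 knockouts (48.2%). LIN28B was lower in the IGF2BP3 than in the IGF2BP2 knockout by -0.81 ± 0.101 there (adjusted p = 5.85e-09, edgeR), and HMGA2 by -0.65 ± 0.0969 (adjusted p = 2.97e-07). In total RNA the counts were 4 (33.3% called), 4 (34.4%) and 3 (43.3%) in the same order. HMGA2 was lower in the IGF2BP1 knockout there than in the IGF2BP2 knockout by -1.49 ± 0.208 (adjusted p = 2.05e-04) and than in the IGF2BP3 knockout by -1.19 ± 0.208 (adjusted p = 8.74e-04). The latter call was lost with limma on log2(FPKM + 1) (adjusted p = 0.0624). Without the repeated library the differences were -1.09 ± 0.125 and -0.79 ± 0.125. Counts for the contrasts with the IGF2BP2 and IGF2BP3 knockouts were then 6 and 5 in total RNA (34.8% and 37.2% of all genes called) and 6 and 5 in nuclear RNA (26.2% and 33.1%). Contrasts with the IGF2BP1 knockout run through the control, since the other knockouts were in other batches.

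The cytoplasmic IGF2BP3 knockout showed how far the levels move between batches of 1 clone. Against batches 3 and 4, batch 5 had 4 of 6 genes called, beside 55.0% of all genes. LIN28B had 64.9 and 59.3 CPM in batch 5 against 47.3 and 45.0 CPM in batches 3 and 4 (0.60 ± 0.0564, adjusted p = 5.42e-11, edgeR). IGF2BP1 was also higher in batch 5 (0.33 ± 0.0358, adjusted p = 1.44e-09). HMGA2 differed by 0.02 ± 0.0444 (adjusted p = 0.679), and with plain library totals by -0.15 (adjusted p = 0.00489). The batch 5 libraries of LIN28B stayed below the lowest control of 73.7 CPM. The sum of the nuclear RNA markers spanned 509 to 1092 CPM over these 4 libraries, and its part in the difference was not tested.

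In control cells the mRNAs differed in where they lay. The nuclear level over the cytoplasmic level was lowest for HMGA1 (log2 ratio -1.14 ± 0.0675, adjusted p = 6.95e-13, edgeR) and HMGA2 (-0.91 ± 0.0597, adjusted p = 4.16e-12). LIN28B (-0.56 ± 0.0615) and IGF2BP2 (-0.49 ± 0.0667) were intermediate, and IGF2BP1 was closer to even (-0.22 ± 0.0654, adjusted p = 0.00581). IGF2BP3 was even, at -0.01 ± 0.0628 (adjusted p = 0.902). In all, 5 of 6 genes were called, all lower in nuclear RNA, beside 65.9% of all genes called and 33.3% lower. The call for IGF2BP1 was lost without control 4 (adjusted p = 0.0533) and without the replicate block (-0.21, adjusted p = 0.116). These are ratios of RNA shares within fractions, and the amount of RNA per fraction is not known.

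Few changes of these ratios were called in the knockouts, near the shares over all genes, and the lack of a call does not show that a ratio held. The nuclear to cytoplasmic ratio was called changed for 0 of 6 genes in the IGF2BP1 knockout (4.11% of all genes called), 1 in the IGF2BP2 knockout (17.5%) and 0 in the IGF2BP3 knockout (10.9%). The gene called was HMGA2, whose ratio rose by 0.34 ± 0.114 (adjusted p = 0.0282, edgeR) in the IGF2BP2 knockout. This call passed in 8 of 14 alternative fits and was lost with DESeq2 (0.32, adjusted p = 0.206). It was also lost without control 3 (0.20, adjusted p = 0.551), control 4 (0.46, 0.0550), IGF2BP2 knockout 1 (0.20, 0.425) or IGF2BP3 knockout 2 (0.34, 0.0504). The changes that did not pass ranged from -0.26 ± 0.114 (LIN28B, IGF2BP1 knockout, adjusted p = 0.204) to 0.31 ± 0.129 (IGF2BP1, IGF2BP1 knockout, adjusted p = 0.173). Without replicate 1 of the IGF2BP1 knockout, which removes the repeated library, the changes in that knockout ranged from -0.20 (LIN28B) to 0.25 (HMGA1), and none passed the test.

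**Figure D5:**
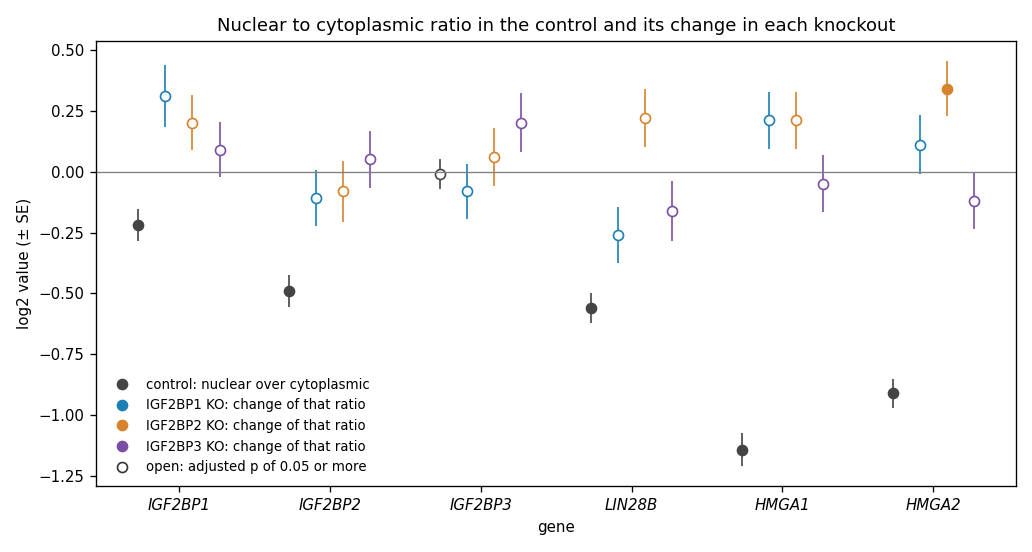
Log2 ratio of nuclear over cytoplasmic RNA in the control and its change in each knockout (y axis, ± SE from edgeR) for each gene (x axis). Open symbols have an adjusted p of 0.05 or more. HMGA1 and HMGA2 have the lowest control ratios, at -1.14 and -0.91, and the filled knockout symbol is HMGA2 in the IGF2BP2 knockout.

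The genes whose levels followed each member most closely were sought over 12 means of log2 CPM (4 genotypes by 3 RNA kinds, centred within each kind) among 14434 genes. The points share libraries and depth, include the library that stands under 2 labels, and the coefficients are descriptions. HMGA2 was followed most closely by CRLF3 (Pearson r = 0.984), COL13A1 (0.975) and IGF2BP1 (0.973). IGF2BP1 was followed by LINC03057 (0.993), MAPK13 (0.990) and COL13A1 (0.987), so HMGA2 and IGF2BP1 share COL13A1. LIN28B was followed by MAP4K4 (0.983), HTT (0.983) and AP1G1 (0.980), and within the set its nearest gene was IGF2BP3 (0.94). HMGA1 was followed by EIF2A (0.985), ASB13 (0.982) and the elongation factor gene EEF2 (0.976). IGF2BP2 was followed by EI24 (0.984), NFRKB (0.982) and ACTN1 (0.981), and IGF2BP3 by SLC16A1 (0.990), TTLL12 (0.986) and POLR1F (0.986).

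The lists that follow hold none of the 6 genes. Their counts are given for cytoplasmic RNA, which does not hold the repeated library, and then for total RNA, which does. Beside them, of all genes in cytoplasmic RNA 22.5% were called higher and 21.9% lower with IGF2BP1 knocked out, 30.9% higher and 33.2% lower with IGF2BP2, and 31.5% higher and 33.2% lower with IGF2BP3, with medians of 0.0113, 0.0130 and 0.0248. In total RNA the shares were 10.7% and 13.5%, 23.3% and 23.7%, and 23.5% and 23.4%, with medians of 0.00448, 0.0204 and 0.0185. Single genes are given in cytoplasmic RNA for the IGF2BP1 knockout and in total RNA for the others, unless said otherwise.

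Of 32 other let-7 targets, 31 were tested. In cytoplasmic RNA 13 rose and 6 fell in the IGF2BP1 knockout (median 0.104), 8 rose and 11 fell in the IGF2BP2 knockout (-0.0404), and 6 rose and 16 fell in the IGF2BP3 knockout (-0.208). In total RNA 1 rose and 5 fell (-0.194), 5 rose and 3 fell (0.0723), and 6 rose and 12 fell (-0.199) in the same order. The balance thus turned between RNA kinds in the IGF2BP2 knockout. It also turned in the IGF2BP1 knockout, but there the total RNA count includes the repeated library, and the list was not fitted without that library. In total RNA these targets summed to 1754 CPM in the repeated library, 2210.3 in the other library of that knockout and 2121 to 2245 in control. MYC, the growth-promoting transcription factor, fell by 1.38 ± 0.0416 in the IGF2BP1 knockout, by 0.73 ± 0.0893 in the IGF2BP2 knockout and by 1.90 ± 0.0924 in the IGF2BP3 knockout (adjusted p = 1.32e-23, 2.73e-05 and 2.27e-08, edgeR). CCND2, a D-type cyclin, fell by 1.96 ± 0.0675 in the IGF2BP1 knockout, and IGF1R, the receptor for insulin-like growth factors, by 0.33 ± 0.0510. In the IGF2BP3 knockout the cell cycle factor E2F5 fell by 1.01 ± 0.106 and the kinase MAP4K4 by 0.71 ± 0.109. In the IGF2BP2 knockout ARID3B rose by 0.69 ± 0.112 and the receptor ACVR1C by 0.65 ± 0.185.

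Genes that make, load or degrade let-7 were tested for all 21 listed. In cytoplasmic RNA 7 rose and 5 fell in the IGF2BP1 knockout (median 0.0618), 3 rose and 12 fell in the IGF2BP2 knockout (-0.231), and 5 rose and 12 fell in the IGF2BP3 knockout (-0.224). In total RNA 1 rose and 7 fell (-0.129), 3 rose and 6 fell (-0.152), and 2 rose and 7 fell (-0.164). XPO5, which exports microRNA precursors from the nucleus, fell by 1.01 ± 0.0836 in the IGF2BP3 knockout (adjusted p = 1.22e-06, edgeR), and KHSRP, which promotes let-7 maturation, by 0.96 ± 0.0933. HNRNPA1 fell by 0.69 ± 0.0828 in the IGF2BP2 and by 0.82 ± 0.0829 in the IGF2BP3 knockout. TUT1, a terminal uridylyltransferase, fell by 0.62 ± 0.118 and the helicase gene DDX5 by 0.55 ± 0.0975 in the IGF2BP2 knockout. Of the Argonaute genes in cytoplasmic RNA of the IGF2BP1 knockout AGO4 rose by 0.53 ± 0.0758 (adjusted p = 4.89e-07), and AGO2 (0.06) and AGO1 (-0.02) did not pass the test. In total RNA of that knockout, which holds the repeated library, all were called lower. The changes there were -0.78 ± 0.133 for AGO2, -0.55 ± 0.108 for AGO1 and -0.48 ± 0.160 for AGO4 (adjusted p = 0.00115, 0.00277 and 0.0442, edgeR).

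Transcripts that host let-7 genes were tested for 7 of 8 in total RNA and 6 of 8 in cytoplasmic RNA. MIR99AHG, which hosts let-7c, rose in the IGF2BP3 knockout (adjusted p = 1.07e-05, edgeR, and by 1.77 ± 0.131 in its cytoplasmic RNA) and by 0.74 ± 0.173 (adjusted p = 0.00351) in the IGF2BP2 knockout. SPACA6 rose by 1.13 ± 0.150 in the IGF2BP3 knockout. MIRLET7IHG, the host of let-7i, fell by 0.59 ± 0.147 in the IGF2BP2 and by 0.46 ± 0.143 in the IGF2BP3 knockout. Its cytoplasmic RNA rose by 0.52 ± 0.208 (adjusted p = 0.0304) in the IGF2BP2 knockout, with 0.43 ± 0.207 (adjusted p = 0.0660) in the IGF2BP3 knockout. In cytoplasmic RNA 2 of the 6 rose and 0 fell in the IGF2BP1 knockout, 4 rose and 2 fell in the IGF2BP2 knockout, and 3 rose and 2 fell in the IGF2BP3 knockout. In total RNA, of 7, 2 rose and 2 fell, 1 rose and 1 fell, and 2 rose and 2 fell. In cytoplasmic RNA of the IGF2BP1 knockout the changes of MIR99AHG (0.17), MIRLET7IHG (0.34) and SPACA6 (0.27) did not pass the test. In total RNA of that knockout, which holds the repeated library, MIR99AHG fell by 0.59 ± 0.200 (adjusted p = 0.0463, edgeR). MIRLET7IHG rose there by 0.55 ± 0.152 and SPACA6 by 0.48 ± 0.157 (adjusted p = 0.0197 and 0.0432, edgeR).

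Of 25 mRNAs known as IGF2BP targets, all tested, in cytoplasmic RNA 3 rose and 13 fell in the IGF2BP1 knockout (median -0.128), 7 rose and 15 fell in the IGF2BP2 knockout (-0.299), and 9 rose and 15 fell in the IGF2BP3 knockout (-0.386). In total RNA 3 rose and 8 fell (-0.139), 5 rose and 13 fell (-0.264), and 8 rose and 12 fell (-0.122). FSCN1, an actin-bundling protein gene, fell by 1.27 ± 0.0595 in the IGF2BP1 and by 1.47 ± 0.124 in the IGF2BP2 knockout, and the cyclin gene CCND1 fell by 1.06 ± 0.0708 in the IGF2BP1 knockout. The glycolytic gene LDHA fell by 1.81 ± 0.0877 in the IGF2BP2 knockout and HK2 fell by 1.93 ± 0.101 in the IGF2BP3 knockout. IGF2, the fetal growth factor whose mRNA gave the family its name, rose by 2.88 ± 0.202 (adjusted p = 3e-07, edgeR) in the IGF2BP3 knockout and by 1.47 ± 0.231 (adjusted p = 2.01e-04) in the IGF2BP2 knockout. GLI1, a transcription factor of the hedgehog pathway, rose by 1.66 ± 0.196 in the IGF2BP2 knockout.

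Of 16 other oncofetal genes 11 were tested. In cytoplasmic RNA 4 rose and 3 fell in the IGF2BP1 knockout (median -0.00118), 4 rose and 3 fell in the IGF2BP2 knockout (0.121), and 8 rose and 1 fell in the IGF2BP3 knockout (0.594). In total RNA 3 rose and 1 fell (0.0773), 3 rose and 2 fell (0.266), and 6 rose and 1 fell (0.563). GPC3, a fetal glypican, rose by 1.07 ± 0.0576 and the growth factor MDK by 0.27 ± 0.0469 in the IGF2BP1 knockout, and PLAC1, a placental gene, fell by 1.29 ± 0.178. In the IGF2BP2 knockout TPBG rose by 0.57 ± 0.124 and BIRC5, an inhibitor of apoptosis, fell by 0.37 ± 0.0851. In the IGF2BP3 knockout SALL4, a stem cell transcription factor, rose by 1.34 ± 0.179 and the adhesion gene EPCAM fell by 2.07 ± 0.313.

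Of 15 RNA-binding partners of IGF2BP granules, all tested, in cytoplasmic RNA 4 rose and 5 fell in the IGF2BP1 knockout (median -0.0355), 1 rose and 12 fell in the IGF2BP2 knockout (-0.342), and 3 rose and 12 fell in the IGF2BP3 knockout (-0.619). In total RNA 2 rose and 3 fell (0.0234), 1 rose and 8 fell (-0.349), and 1 rose and 10 fell (-0.476). YBX1, a cold-shock domain protein that shares mRNAs with IGF2BP1, fell by 1.15 ± 0.0836 in the IGF2BP2 and by 0.73 ± 0.0829 in the IGF2BP3 knockout. FMR1, the fragile X protein gene, fell by 0.12 ± 0.0411 in the IGF2BP1 and by 1.27 ± 0.110 in the IGF2BP2 knockout, and its relative FXR2 fell by 0.81 ± 0.0488 in the IGF2BP1 knockout. PABPC1, the cytoplasmic poly(A)-binding protein gene, fell by 0.20 ± 0.0333 in the IGF2BP1 and by 0.67 ± 0.0792 in the IGF2BP3 knockout. DHX9 fell by 0.63 ± 0.0877 in the IGF2BP2 knockout and SYNCRIP by 0.78 ± 0.0998 in the IGF2BP3 knockout.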

How the data were processed

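Poly(A) RNA-seq counts per gene were deposited for each library, together with FPKM values. Per the submitters' processing notes, reads were aligned to GRCh38 with STAR and counted with featureCounts, and DESeq2 1.44.0 was used. The deposited FPKM values were scaled by the whole gene span, so levels between genes were compared as CPM per kb of the principal GENCODE 29 transcript, in place of the FPKM that had been planned. The genes and lists were chosen with earlier results of these data known. Each RNA kind was fitted in R 4.3.3 with edgeR 4.0.16 (TMM, filterByExpr, quasi-likelihood test, batch and genotype as terms), with Benjamini-Hochberg adjustment over all genes tested (18745 in total, 18732 in nuclear and 18212 in cytoplasmic RNA). Batches come from the labels, and correlations of same-batch deviations were -0.17 to 0.02. The scripts were tested on simulated counts. Alternatives were DESeq2 1.42.0, limma 3.58.1 on log2 FPKM, other scalings, filters and blocks, and leaving out each library. From each list up to 3 genes per knockout, with the largest called change in total RNA and a mean of at least 1 CPM, were named. UTRs of like length were those from 0.8 of a gene's UTR length up to the same factor above it. The summed level of the haematopoietic markers is not reported here.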

Additional observations from a re-analysis of the deposited data

Results flagged for a closer look

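IGF2BP3 in cytoplasmic control RNA had 1 library that stood apart, control 1 at 69.0 CPM, while the other 3 had 63.4, 63.8 and 63.8 CPM. Its gap to the next library was 0.927 of the group's range. In all 24 groups were tested in this way, and chance alone gives about 5% of them. Both IGF2BP1 knockout libraries, at 88.0 and 85.2 CPM, were above it.

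The change of HMGA2 in the IGF2BP2 knockout differed between nuclear and cytoplasmic RNA by 0.34 on the log2 scale (adjusted p = 0.0282 for the difference, edgeR), and the call was lost in 6 of 14 alternative fits.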

How the results depend on the processing

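Of 2646 alternative values of single genes, 2446 kept their direction and their side of the threshold, 103 lost the call, 44 gained one and 53 changed sign. Each change of sign with a call on either side was for LIN28B in total RNA of the IGF2BP1 knockout or for HMGA1 or HMGA2 in batch 5, and the cause of the others was not tested. There were 2 libraries per knockout and batch pair, and whether depth or the number of libraries limits the precision more was not tested.

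The batch was the replicate block. Without it (no replicate block, so not paired) members called numbered 3 in total RNA of the IGF2BP1 knockout, 5 in the IGF2BP2 and 5 in the IGF2BP3 knockout, beside 21.0%, 49.5% and 49.5% of all genes. The sign then changed for IGF2BP1 (0.15) and HMGA1 (0.07) between the IGF2BP3 and IGF2BP2 knockouts in cytoplasmic RNA, for IGF2BP2 in nuclear RNA of the IGF2BP1 knockout (0.07), between the IGF2BP1 and IGF2BP3 knockouts in total RNA (0.06) and in the nuclear to cytoplasmic ratio of the IGF2BP1 (0.03) and IGF2BP3 (-0.10) knockouts, and for HMGA2 in nuclear RNA of the IGF2BP2 knockout (0.04). Over all genes 4185 were called without the block in cytoplasmic RNA of the IGF2BP1 knockout, against 8095 with it, and for the ratio 1674 against 3376 in the IGF2BP2 and 639 against 2100 in the IGF2BP3 knockout. Between the IGF2BP1 and IGF2BP2 knockouts in nuclear RNA it was 8554 against 5256. With crossed batch numbers, chosen after the data had been examined, members called were 6 (IGF2BP2 knockout) and 5 (IGF2BP3 knockout) in total RNA and 3 (IGF2BP1 knockout) in nuclear RNA.

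With upper quartile scaling the sign changed for IGF2BP1 (0.00) and HMGA1 (0.01) between the IGF2BP3 and IGF2BP2 knockouts in cytoplasmic RNA, for IGF2BP3 between the control fractions (0.01), for HMGA2 in batch 5 (-0.11) and in nuclear RNA of the IGF2BP2 knockout (0.03). Without a filter on low counts it changed for the same pair of genes (0.00 and 0.01). With at least 10 counts in every library it changed for HMGA2 in batch 5 (-0.02) and in nuclear RNA of the IGF2BP2 knockout (0.00). With plain library totals it changed for IGF2BP1 (0.03) and HMGA1 (0.04) between the IGF2BP3 and IGF2BP2 knockouts in cytoplasmic RNA, IGF2BP2 in total RNA of the IGF2BP3 knockout (0.06), HMGA1 (-0.01) and HMGA2 (-0.15) in batch 5, and HMGA2 in nuclear RNA of the IGF2BP2 knockout (0.07).

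With limma on log2(FPKM + 1) or log2(FPKM + 0.1), 2 members were called in total RNA of the IGF2BP1 knockout against 4, and 2 in batch 5 against 4. Between the IGF2BP1 and IGF2BP2 knockouts limma with 0.1 called 2 in total RNA against 4 and 3 in nuclear RNA against 5, and between the IGF2BP1 and IGF2BP3 knockouts limma with 1 called 2 in total RNA against 4. Over all genes limma called 2258 (with 1) and 2425 (with 0.1) in total RNA of the IGF2BP1 knockout against 4528, and 1709 and 1805 in nuclear RNA against 4811. It called 2683 and 2679 in nuclear RNA between the IGF2BP1 and IGF2BP2 knockouts, and 3860 and 3948 between the IGF2BP1 and IGF2BP3 knockouts against 6498. DESeq2 called 3062 in nuclear RNA of the IGF2BP1 knockout and 3399 between the IGF2BP1 and IGF2BP2 knockouts, and the fit of batches 1 and 2 alone called 2354 in total RNA of the IGF2BP1 knockout. For the nuclear to cytoplasmic ratio in the IGF2BP2 knockout, upper quartile scaling and DESeq2 called 0 members against 1. DESeq2 called 73 of all genes against 794 for the ratio in the IGF2BP1 knockout, 1050 against 3376 in the IGF2BP2 and 656 against 2100 in the IGF2BP3 knockout.

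Leaving out 1 library at a time, members called ranged from 3 (without control 3 or IGF2BP2 knockout 1) to 6 in total RNA of the IGF2BP2 knockout and from 3 (without control 3 or IGF2BP2 knockout 2) to 5 in its nuclear RNA. They ranged from 2 (without IGF2BP3 knockout 3) to 4 in batch 5, and from 0 to 1 for the ratio in the IGF2BP2 knockout. Changes whose sign depended on 1 library ranged, for IGF2BP1, from -0.13 to 0.01 between the IGF2BP3 and IGF2BP2 knockouts in total RNA. For IGF2BP2 they ranged from -0.05 to 0.03 in batch 5, from -0.03 to 0.34 between the IGF2BP1 and IGF2BP3 knockouts in nuclear RNA, from -0.23 to 0.13 in nuclear RNA of the IGF2BP1 knockout, and for the ratio from -0.32 to 0.05, -0.20 to 0.04 and -0.06 to 0.16 in the 3 knockouts. For IGF2BP3 they ranged from -0.05 to 0.04 between the control fractions, from -0.03 to 0.16 for the ratio in the IGF2BP2 knockout and from -0.04 to 0.23 in total RNA of the IGF2BP1 knockout. For LIN28B in total RNA they ranged from -0.50 to 0.27 in the IGF2BP1 knockout and from -0.11 to 0.67 between the IGF2BP1 and IGF2BP2 knockouts. For HMGA1 they ranged from -0.09 to 0.07 in cytoplasmic and -0.14 to 0.06 in total RNA between the IGF2BP3 and IGF2BP2 knockouts, and from -0.20 to 0.13 for the ratio in the IGF2BP3 knockout. For HMGA2 they ranged from -0.14 to 0.10 in nuclear RNA of the IGF2BP2 knockout, and for the ratio from -0.02 to 0.19 in the IGF2BP1 and from -0.26 to 0.00 in the IGF2BP3 knockout.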
